A study of Arabidopsis thaliana with 12 samples.

Results

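This account covers 40 probe sets whose signal in Arabidopsis thaliana roots was higher on low than on sufficient sulfate in both slim1 mutants as well as in their parent. They were drawn from 22746 probe sets other than the array controls. Each array was scaled to a median signal of 100, signals under 32 were raised to 32, and log2 values were averaged per group. A probe set was kept when its response, the low-sulfate mean minus the sufficient-sulfate mean on the log2 scale, was at least 0.5 in slim1-1, slim1-2 and the parent, and when both low-sulfate arrays lay above both sufficient-sulfate arrays in each line. In all, 49 probe sets met these conditions, and 9 of them, among them BGLU28, AT1G12030, AT4G31330, AT3G56200 and AT4G14060, were left out by name.

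The 12 arrays fall into 6 groups of 2: slim1-1 on S15, slim1-2 on S15, P on S15, slim1-1 on S1500, slim1-2 on S1500 and P on S1500. P is the parent, a Columbia line that carries the SULTR1;2 promoter fused to GFP. Both slim1 lines were isolated from P by their missing GFP response to sulfur limitation, so all 3 lines carry the reporter, and each slim1 line is 1 mutant isolate. S15 agar had 15 µM and S1500 agar 1500 µM of added magnesium sulfate, on top of about 10 µM that came with the agar, and roots were taken at 10 days. The labels name the arrays of a group biological replicates and do not say how many plants went into each.

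Plants take up sulfate through root transporters, activate it with ATP, reduce it to sulfide and build it into cysteine, from which methionine and glutathione are made. When sulfate runs short, roots raise transporters and enzymes that release sulfur from glucosinolates and glutathione, and lower the synthesis of sulfur-rich defence compounds. Much of this switch needs SLIM1, also called EIL3, which binds DNA and is related to EIN3, the ethylene signalling factor.

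Deposited array medians spanned 65.7 to 175.2, the highest being that of the second slim1-2 array on S15. Scaled to a median of 100, each array had 28.3% to 30.8% of its probe sets at the floor of 32. The 27 probe sets for Bacillus subtilis controls, whose RNA plants do not make, reached at most 10.5 to 29.1 per array, below that floor. Log2 signals of 2 arrays correlated at 0.991 to 0.993 within groups and at 0.983 to 0.993 between groups, a description over probe sets that are not independent of each other. With 2 arrays a group, precision is set by the number of arrays. SLIM1 has no named probe set in the annotation used and was not analysed here.

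Of the 40 members, 19 have 1 gene in the probe annotation, 1 has several and 20 are not listed there. The members' median response was 0.77 in slim1-1, 0.70 in slim1-2 and 0.74 in P on the log2 scale, a fold of 1.71, 1.63 and 1.67. Over all 22746 probe sets the median response was 0 in each line. The members were chosen by these responses, so they are given as a description, with no test. The conditions were met by 1.05% of all probe sets in slim1-1, 1.53% in slim1-2, 2.08% in P and 0.215% in all 3 lines at once. Of the 472 probe sets that met them in P, 49 met them in all lines and 423 did not.

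**Figure D1:**
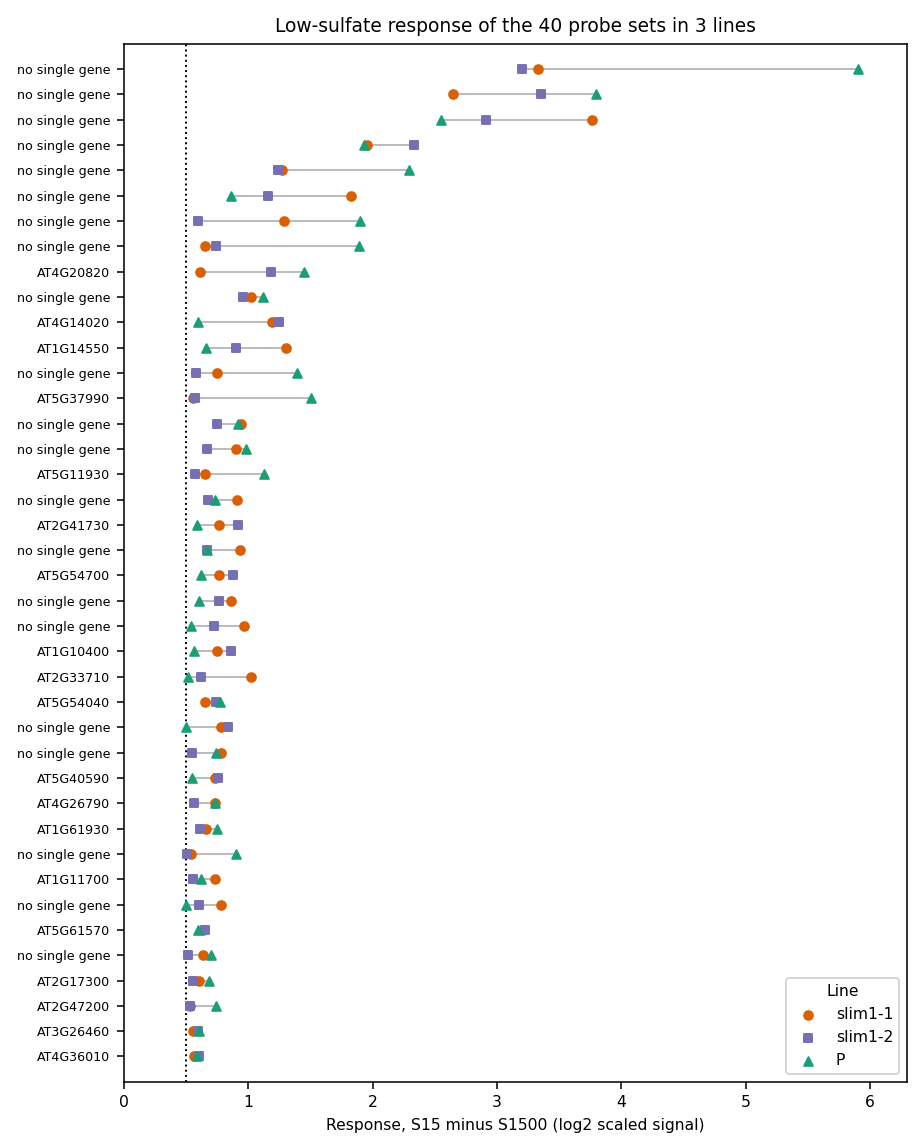
Response of each of the 40 probe sets (rows, ordered by the mean of the 3 lines), as S15 minus S1500 in log2 scaled signal, in slim1-1 (circles), slim1-2 (squares) and P (triangles). The dotted line is the 0.5 threshold of the rule, and grey bars join the lowest and the highest line. The top 3 probe sets had a response of at least 2 in every line, and only 5 had one of at least 1.

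Large responses were few. A response of at least 2 in all lines was reached by 3 members, and one of at least 1 by 5. Single lines reached 1 for 11 members in slim1-1, 8 in slim1-2 and 12 in P. The 2 members just inside the rule were set by P, at 0.50 each, and the 2 probe sets just outside it had a lowest response of 0.49, in P for one and in slim1-1 for the other. The gap between groups was narrow for many members. In the line where each was weakest, the lowest S15 signal exceeded the highest S1500 signal by a median factor of 1.29, and by less than 1.2 for 11 of the 40. The smallest factor, 1.06, was reached in slim1-1. The median SD between the 2 arrays of a group was 0.11 for the members, against 0.06 for all probe sets.

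The largest responses belonged to probe sets that the annotation does not tie to a gene. Probe set 255105_at had 692 and 484 on S15 against 50.7 and 64.9 on S1500 in slim1-1, and 950.1 and 678 against 88.6 and 85.9 in slim1-2. In P it had 1887 and 1949 on S15, and both S1500 arrays were at the floor of 32. The fold was 10.1 in slim1-1, 9.19 in slim1-2 and at least 59.9 in P. The lines thus differed on both media: on S15 all 4 slim1 arrays lay below both P arrays, and on S1500 all 4 lay above them.

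Probe set 249752_at had 1426 and 1256 on S15 against 231 and 199 on S1500 in slim1-1, 1816 and 1451 against 163 and 154 in slim1-2, and 1365 and 1419 against 107 and 93.9 in P. On S15 slim1-1 overlapped with P and both slim1-2 arrays were above both P arrays, whereas on S1500 all 4 slim1 arrays were above both P arrays. The fold was 6.25, 10.2 and 13.9 in slim1-1, slim1-2 and P. The third of this kind, 250475_at, was chosen after its values were seen. It had 2228 and 2345 on S15 against 182 and 155 on S1500 in slim1-1, 2453 and 1889.7 against 271 and 301 in slim1-2, and 1253 and 1172 against 212 and 202 in P. Here the S1500 signals of slim1-1 lay below and those of slim1-2 above those of P, and all 4 slim1 arrays on S15 were above both P arrays. The responses were 3.77 in slim1-1, 2.92 in slim1-2 and 2.55 in P. The 21 members without a single gene had median responses of 0.94, 0.74 and 0.92 in slim1-1, slim1-2 and P, with highest values of 3.77, 3.36 and at least 5.91. The 19 with 1 gene had medians of 0.66, 0.62 and 0.62, in the same order of lines.

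**Figure D2:**
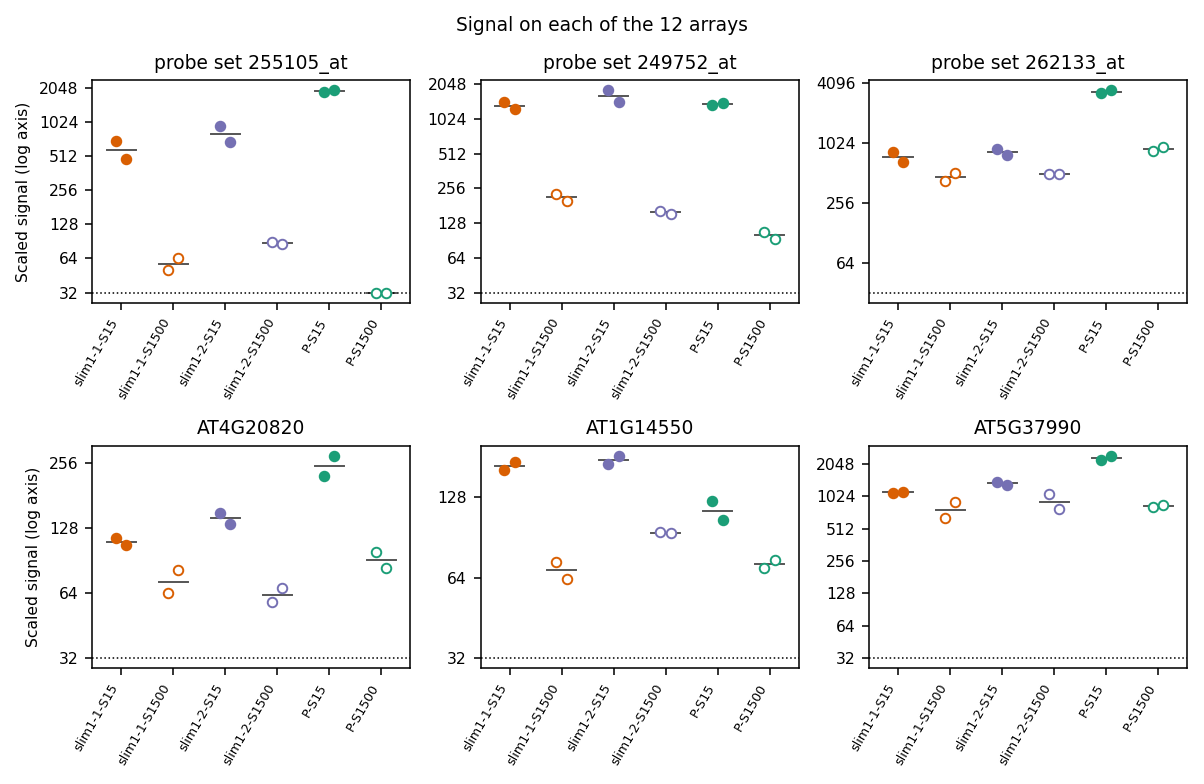
Scaled signal (median of each array 100, log axis) on the 12 arrays for 3 probe sets without a named gene and for AT4G20820, AT1G14550 and AT5G37990. Filled points are S15 and open points S1500, 2 arrays a group, the short lines are group means of log2 values, and the dotted line is the floor of 32. In 255105_at the P arrays span 32 to 1949, while the slim1 arrays span 50.7 to 950.1.

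Among the named members, several encode enzymes. AT4G20820, which had the largest mean response of those with 1 gene, is of the berberine bridge enzyme-like family of FAD-linked oxidases. It had 114 and 106 on S15 against 63.7 and 81.8 on S1500 in slim1-1. In slim1-2 it had 150.5 and 133 on S15 against 58.1 and 67.3 on S1500, and in P 223 and 276 against 98.7 and 83.7. Its fold was 1.53 in slim1-1, 2.27 in slim1-2 and 2.73 in P, and the P arrays were the highest on either medium. AT5G37990, of the SABATH family of methyltransferases, which use S-adenosylmethionine to methylate small molecules, was among the brightest members. It had 1109.9 and 1134 on S15 against 641 and 913 on S1500 in slim1-1, 1405 and 1301 against 1069 and 774 in slim1-2, and 2246 and 2449.6 against 809 and 846 in P. On S1500 the lines overlapped, and on S15 both P arrays were above all slim1 arrays. The response was 0.55 in slim1-1 and 0.57 in slim1-2, and 1.50 in P.

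AT1G14550, a secretory peroxidase of the class that acts on cell walls and hydrogen peroxide, went the other way. Its signals were 162 and 174 on S15 against 73.4 and 63.3 on S1500 in slim1-1, 169.9 and 183 against 94.7 and 93.9 in slim1-2, and 124 and 105 against 69.8 and 74.6 in P. All 4 slim1 arrays on S15 were above both P arrays. The fold was 2.46, 1.87 and 1.58 in slim1-1, slim1-2 and P. AT1G10400, a UDP-glycosyltransferase family gene, was dim, at 53.5 and 68.2 on S15 against 34.9 and 36.9 on S1500 in slim1-1, 66.8 and 62.4 against 33.3 and 38.1 in slim1-2, and 60.5 and 61.7 against 39.1 and 43.8 in P. On S15 slim1-1 overlapped with P and both slim1-2 arrays were just above both P arrays, and on S1500 the P arrays were the highest. AT4G26790, a GDSL-type lipase gene, had responses of 0.73, 0.56 and 0.74 in slim1-1, slim1-2 and P, but its slim1-1 arrays on S15 were 97.3 and 53.4, far apart.

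In redox chemistry, AT5G11930 encodes a glutaredoxin, a small protein that uses glutathione to reduce disulfides. It had 84.0 and 65.1 on S15 against 60.3 and 36.6 on S1500 in slim1-1, 82.3 and 89.6 against 47.9 and 70.1 in slim1-2, and 94.1 and 89.9 against 42 and 42.2 in P. Its S1500 arrays were far apart in both slim1 lines and close together in P. The response was 0.65, 0.57 and 1.13 in slim1-1, slim1-2 and P.

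Genes of signalling families were few and had responses near the threshold in P. AT2G33710 encodes an AP2/ERF family transcription factor, a family that holds ethylene response factors. Its signals were 130.1 and 109 on S15 against 55.9 and 61.1 on S1500 in slim1-1, 97.3 and 68.7 against 55.3 and 50.8 in slim1-2, and 100.4 and 96.9 against 56.5 and 84.0 in P. The response was 1.03 in slim1-1, 0.62 in slim1-2 and 0.52 in P, where 1 of the S1500 arrays came close to the S15 arrays. AT5G61570, a protein kinase family gene, had an even response of 0.64, 0.65 and 0.60 in slim1-1, slim1-2 and P. AT5G54700 encodes an ankyrin repeat protein, a domain that binds other proteins. It had 70.1 and 54.5 on S15 against 38.7 and 34.1 on S1500 in slim1-1, 68.6 and 61.5 against 39.3 and 32 in slim1-2, and 64.7 and 60.4 against 35.3 and 46.7 in P. All 3 lines overlapped on each medium, and 1 slim1-2 array on S1500 was at the floor.

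Some members belong to the same family. AT5G54040 and AT5G40590 both encode cysteine- and histidine-rich C1 domain proteins, a large plant family whose members are mostly without a known role. AT5G54040 had 487 and 426 on S15 against 279.9 and 302 on S1500 in slim1-1, 489.6 and 495 against 317 and 273 in slim1-2, and 478 and 493 against 281 and 288 in P, so that the slim1 lines each overlapped with P on both media. On S15 both slim1-1 arrays were just below both slim1-2 arrays. The AT5G40590 response was 0.73, 0.75 and 0.55 in slim1-1, slim1-2 and P. AT1G61930 and AT1G11700 both belong to the plant senescence regulator family. Their responses were 0.66, 0.61 and 0.75 for AT1G61930 and 0.73, 0.56 and 0.62 for AT1G11700, in the same order of lines. The named members lay apart in the genome: the nearest pair, AT5G54700 and AT5G54040, had 74 protein-coding genes between them in the RefSeq table of assembly TAIR10.1.

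AT4G36010, of the thaumatin-like pathogenesis-related family, had 0.57, 0.60 and 0.59 in slim1-1, slim1-2 and P, and AT3G26460, of the Bet v 1-like major latex protein family, 0.56, 0.60 and 0.60. By the mean of the 3 lines these were the lowest of the 40 responses, with AT2G47200 and AT2G17300 close above them. For AT3G26460 the slim1-2 arrays on S1500 were 121 and 71.7, far apart, and both S15 arrays were 141.

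The named members without a described role here were AT4G14020, AT2G41730, AT2G17300 and AT2G47200. AT4G14020 had 93.7 and 103 on S15 against 34.3 and 53.9 on S1500 in slim1-1, 97.7 and 137 against 48.5 and 48.7 in slim1-2, and 55.7 and 84.7 against 46.5 and 44.6 in P. On S15 all 4 slim1 arrays were above both P arrays. On S1500 slim1-1 overlapped with P, and both slim1-2 arrays were just above both P arrays. The fold was 2.29 in slim1-1, 2.38 in slim1-2 and 1.51 in P. AT2G41730 was read by a probe set that can cross-hybridise with other transcripts, as its x suffix marks. It had 94.9 and 81.8 on S15 against 47.1 and 57.0 on S1500 in slim1-1, 82.3 and 102 against 47.4 and 49.7 in slim1-2, and 67.6 and 73.3 against 51.9 and 42.2 in P. Both slim1 lines were above P on S15. The responses were 0.60, 0.56 and 0.69 for AT2G17300 and 0.53, 0.53 and 0.74 for AT2G47200, in slim1-1, slim1-2 and P.

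How much of the parental response was kept varied widely among members. The mean of the 2 slim1 responses was between 36.8% and 206% of the P response on the log2 scale, with a median of 94.2%. In 16 members both slim1 lines responded more than P, in 19 both responded less, and in 5 they lay on either side. A mean slim1 response below 50% of that in P was seen in 4 members: AT5G37990 with 37.4%, and 3 without a single gene. Of these 3, 266965_at had both slim1-1 arrays on S1500 at the floor, so its share of 49.6% is a lower bound and may pass 50%. For 255105_at, with its P arrays on S1500 at the floor, the share of 55.3% is an upper limit and may be under 50%. The difference of response, the mean slim1 response minus the P response, had a median of -0.05 and ran from -2.64 to 0.79, where -2.64, that of 255105_at with its P arrays on S1500 at the floor, is an upper limit, against a median of -0.03 over all tested probe sets. It was -0.94 ± 0.192 for AT5G37990, -0.55 ± 0.219 for AT4G20820 and -0.52 ± 0.305 for AT5G11930 (SE of the fit, n = 2 arrays per group). It was 0.63 ± 0.31 for AT4G14020, 0.44 ± 0.19 for AT1G14550 and 0.31 ± 0.269 for AT2G33710. These values are built from the responses that chose the members, each held to at least 0.5, and carry no test. The responses of the 2 slim1 lines differed by a median of 0.13, and by more than 0.5 in 5 members. This gap also comes from responses that the rule used, and it was not compared with that of other probe sets.

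**Figure D3:**
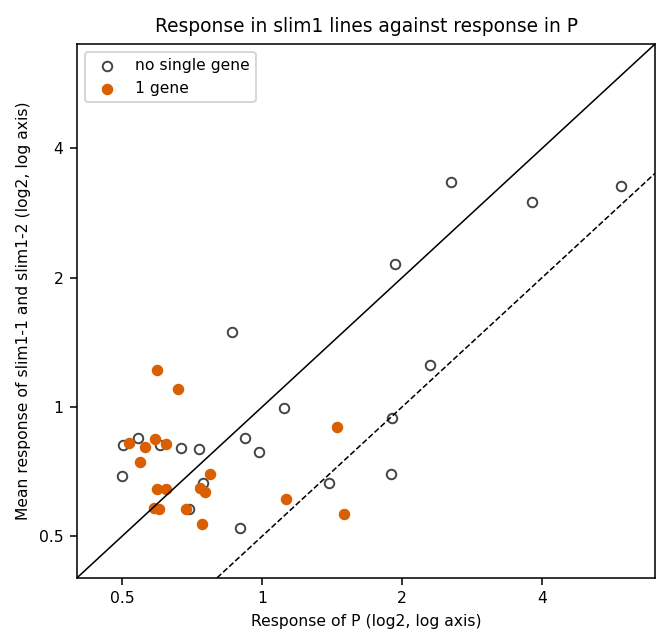
Mean response of slim1-1 and slim1-2 against the response of P for the 40 probe sets (log2 responses on log axes). Filled points have 1 gene and open points do not, the solid line marks equal responses and the dashed line a slim1 response of 50% of that in P. Points lie on both sides of the solid line, from 36.8% to 206%.

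Whether the lines differed in their average over S15 and S1500 was tested, because that average is a contrast that the rule did not use. A difference on S15 or S1500 alone can also give a call. A linear model was fitted with limma to all 12 arrays and to the 13647 probe sets whose mean log2 signal was above the 40th percentile. A difference counted as called when its Benjamini-Hochberg adjusted p was under 0.05. Of the 40 members 34 passed this filter, 26 of them also by their S1500 mean alone. The other 8, 255105_at, AT4G14020, AT5G11930, AT2G41730, AT2G33710, AT1G61930 and AT1G11700 among them, passed only through their S15 arrays, and 6 dim members, AT5G54700, AT1G10400 and AT4G26790 among them, were not tested. For both slim1 lines minus P, 10 of the 34 were called, all of them among the 26, 4 higher and 6 lower, where 2.78% of all tested probe sets were called, 0.674% higher and 2.1% lower. In 263231_at every slim1 array was above both P arrays on each medium, and in 262133_at, 264745_at and AT4G20820 below. In the other called members slim1 and P arrays overlapped on S15 or on S1500. Their calls rest mostly on a single medium, a difference that also enters their difference of response. The probe sets that met the response conditions in P but not in all lines had 55 of 311 tested called, 6 higher and 49 lower, or 17.7%. Where the lines are alike on S1500, a lower slim1 average can follow from how these others were chosen. How many of them passed the filter only through their S15 arrays was not counted. The median difference was -0.07 in the members, -0.08 in those others and -0.01 over all tested probe sets. The median absolute difference was 0.21, 0.17 and 0.09 in the same order.

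Of the called members, 3 have 1 gene. AT4G20820 was lower in the slim1 lines, at -0.71 ± 0.109 on the log2 scale (SE, n = 4 slim1 arrays and 2 P arrays on each medium; limma adjusted p = 0.002). This difference was -0.99 on S15 and -0.44 on S1500, so it had the same sign on both media. AT5G37990 was lower, at -0.46 ± 0.0961 (limma adjusted p = 0.0172), with -0.93 on S15 and 0.01 on S1500. AT1G14550 was higher, at 0.37 ± 0.095 (limma adjusted p = 0.0499), with 0.59 on S15 and 0.15 on S1500. The call of AT1G14550 was lost without any single array except slim1-1-S1500 replicate 2, with values of 0.31 to 0.43, with the replicate number as a block (adjusted p = 0.0574) and with a floor of 16 (adjusted p = 0.0501). AT5G37990 lost its call without P-S1500 replicate 1 (-0.47) or 2 (-0.44) or P-S15 replicate 2 (-0.43), and with no intensity trend in the fit (limma adjusted p = 0.0594).

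The largest line-average difference among the members was that of 262133_at, chosen after its values were seen. It had 827 and 647 on S15 against 426 and 507 on S1500 in slim1-1, 889.6 and 767 against 492 and 499 in slim1-2, and 3196 and 3420.2 against 849 and 930.4 in P. All slim1 arrays were below both P arrays on each medium. The difference was -1.49 ± 0.0771 (limma adjusted p = 2.92e-08), and it kept its call without any single array. In the other direction, 263231_at, also chosen after its values were seen, was higher, at 0.79 ± 0.125 (limma adjusted p = 0.00228), with 289 and 218 on S15 in slim1-1, 177 and 183 in slim1-2 and 98.2 and 99.3 in P. On S1500 it had 73.5 and 68.5 in slim1-1, 102 and 63.8 in slim1-2 and 52.1 and 56.9 in P, so slim1 was above P on each medium. Probe sets 249752_at and 250475_at were both higher, at 0.48 (SE 0.0755 and 0.0752; limma adjusted p = 0.00228 each). For 249752_at the difference was 0.88 on S1500 and 0.08 on S15, and for 250475_at it was 0.08 on S1500 and 0.87 on S15. Of the members not called, the differences ran from -0.39 to 0.32.

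**Figure D4:**
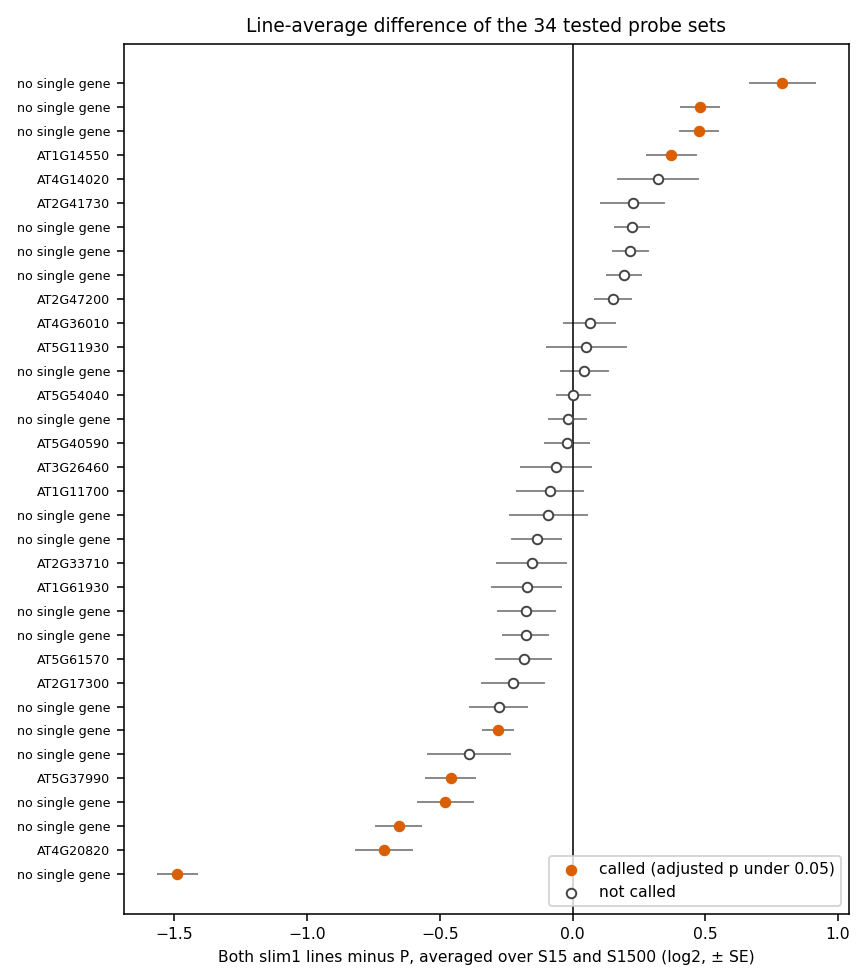
Difference between both slim1 lines and P, averaged over S15 and S1500, for the 34 tested probe sets (log2 scaled signal, points with SE of the limma fit). Filled points were called at an adjusted p under 0.05 and open points were not. Of them 10 were called, 4 to the right of 0 and 6 to the left, from -1.49 to 0.79.

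Taken line by line, slim1-1 minus P was called for 10 of 34 members, 2 higher and 8 lower, against 2.15% of all tested probe sets, 0.396% higher and 1.75% lower. For slim1-2 minus P it was 8 of 34, 4 higher and 4 lower, against 2.76%, of which 0.762% were higher and 2% lower. Of the 311 tested probe sets that met the conditions in P but not in all lines, 22.5% were called for slim1-1 minus P, 4 higher and 66 lower. For slim1-2 minus P 11.3% of them were, 6 higher and 29 lower. In both comparisons 5 members were called, all 5 with the same sign, 2 higher and 3 lower, and AT4G20820 was the named one (-0.75 ± 0.126 in slim1-1 and -0.67 ± 0.126 in slim1-2; limma adjusted p = 0.00445 and 0.00863). AT5G37990 was called in slim1-1 (-0.59 ± 0.111, limma adjusted p = 0.00994) and AT1G14550 in slim1-2 (0.51 ± 0.11, limma adjusted p = 0.0203). In slim1-2, AT4G20820 lost its call without P-S15 replicate 2 (-0.60), and AT1G14550 lost its call without P-S1500 replicate 1 (0.48), P-S15 replicate 2 (0.45), the second slim1-2 array on S1500 (0.51) or the second on S15 (0.48). The 2 comparisons share the P arrays. The members' median difference was -0.22 for slim1-1 minus P, with 11 of 34 above 0, and 0.10 for slim1-2 minus P, with 22 of 34 above 0, beside medians of -0.01 over all tested probe sets in each. The slim1 lines were also compared with each other, and 5 of 34 members were called, all lower in slim1-1, against 1.74% of all tested probe sets, of which 0.586% were higher and 1.15% lower. Of the 311 others that met the conditions in P, 15.4% were called here, 3 higher and 45 lower in slim1-1, a share like that of the members. None of the 5 called members has a named gene, and 255105_at was among them (-0.54 ± 0.127, limma adjusted p = 0.044), although it passed the filter only through its S15 arrays. That call was kept without slim1-1-S1500 replicate 2, slim1-1-S15 replicate 1 or slim1-2-S15 replicate 2, and lost without any of the other 9 arrays, with values of -0.55 to -0.41. It was also lost with a floor of 64 (-0.45, limma adjusted p = 0.0831) and with no intensity trend (limma adjusted p = 0.0975). The root hair expansin EXPA18 and the green-tissue gene RCA were lower in slim1-1 in this comparison too, at -0.66 and -0.41. The glucosinolate synthesis gene BCAT4 was called higher in slim1-1, at 0.63. The part of these genes in the comparison was not tested.

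All differences above are relative to signals scaled to equal medians. Without scaling between arrays, 2 members were called for both slim1 lines minus P, 263231_at as higher and 262133_at as lower. AT4G20820, AT5G37990 and AT1G14550 then had -0.45, -0.19 and 0.64 and lost their calls. The unscaled median of all tested probe sets was 0.25 in this comparison, and 0.02, 0.61 and 0.26 in the S15 minus S1500 response of slim1-1, slim1-2 and P. The split of all calls into higher and lower also moved. For both slim1 lines minus P it was 15 and 10 unscaled against 92 and 287 scaled, for slim1-1 minus P 8 and 15 against 54 and 239, for slim1-2 minus P 17 and 10 against 104 and 273, and for slim1-1 minus slim1-2 0 and 18 against 80 and 157. For S15 minus S1500 it was 11 and 13 against 67 and 210 in slim1-1, 28 and 9 against 110 and 233 in slim1-2, and 40 and 24 against 224 and 259 in P. With all probe sets tested, dim ones included, 262133_at was the 1 called member for both slim1 lines minus P.

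Levels of the members spread over the range of the array. Their mean log2 signal lay between the 35.4th and the 96.3th percentile of all probe sets, with a median at the 55.8th. AT5G37990 and AT5G54040 were among the bright ones, and 14 of the 40 were below the median of all probe sets, AT5G11930, AT4G14020 and AT2G41730 among them. In 3 members both arrays of at least 1 S1500 group were at the floor, so their fold there is a lower bound. A single S1500 array was at the floor for AT5G54700 in slim1-2, for 254743_at in slim1-1 and P, and for 260540_at in both slim1 lines. The same held in slim1-1 for 266743_at, which also had both P arrays on S1500 at the floor. Their folds in those lines are lower bounds too. No member had an S15 array at the floor. On S15, 7 members had all 4 slim1 arrays above both P arrays and 9 had them below, where 6.22% and 9.67% of all probe sets did. On S1500 it was 5 above and 5 below, where 7.23% and 6.62% did. Of all probe sets, 4964 were at the floor on all arrays and could lie on neither side. The shares over all probe sets are therefore low as a comparison for the members. On both media 1 member was above and 3 were below, and 255105_at was on opposite sides.

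Pathway genes outside the members were taken from 21 lists of sulfur, hormone, nutrient and cell type genes. Of their 463 entries, 55 genes have a named probe set and 36 were tested. None of them is a member, although BGLU28, a beta-glucosidase that releases sulfur from glucosinolates, met the response conditions before it was left out by name. For these genes the responses were tested, and S15 minus S1500 was called for 2.03% of all tested probe sets in slim1-1 (0.491% higher, 1.54% lower), 2.51% in slim1-2 (0.806% higher, 1.71% lower) and 3.54% in P (1.64% higher, 1.9% lower).

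Among glutathione breakdown genes and glutathione S-transferases, which join glutathione to other molecules, 7 were tested. In each slim1 line 1 was higher and 1 lower on S15, and in P 2 were higher and 1 lower. GSTU22 rose by 0.63 in slim1-1 and by 0.48 in slim1-2, and its change of 0.39 in P did not pass. GSTU27 rose by 0.92 in P, with changes of 0.14 in each slim1 line that did not pass. GSTU20, the lower one, changed by -1.20 in slim1-1, -0.94 in slim1-2 and -1.98 in P. In sulfate assimilation and the synthesis of cysteine and glutathione, 3 genes were tested. APS3, an ATP sulfurylase that activates sulfate, rose by 0.76 in P, against changes of -0.06 in slim1-1 and 0.07 in slim1-2 that did not pass. APS4, of the same family, and SIR, sulfite reductase, were lower on S15 in every line, APS4 by -0.77, -0.81 and -2.50 and SIR by -0.58, -0.65 and -0.48 in slim1-1, slim1-2 and P. Of 3 oxidative stress genes, MSRB5, which repairs oxidised methionine, rose by 0.89 in P, with changes of 0.09 in slim1-1 and 0.14 in slim1-2 that did not pass. Of 3 glutaredoxins and thioredoxins, the family of member AT5G11930, GRXC2 rose by 0.36 in P, with -0.16 in slim1-1 and 0.24 in slim1-2 not passing.

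For both slim1 lines minus P, 1 of the 7 glutathione genes was lower (GSTU27, -0.40), as were 1 of 3 assimilation genes (APS3, -0.55), 1 of 3 glutaredoxins and thioredoxins (GRXC2, -0.51), 1 of 3 oxidative stress genes (MSRB5, -0.49), 1 of 2 flavonoid genes (UGT78D2, -0.53) and 2 of 3 glucosinolate breakdown genes (BGLU28, -1.81, and BGLU25, -0.34). BGLU28 was at the floor of 32 on every S1500 array, so its difference came from S15 alone. It passed the filter only through its S15 arrays. In glucosinolate synthesis BCAT4, GSTU20 and UGT74B1 had 0.22, 0.04 and -0.20 and did not pass. Neither did the methionine genes CBL, MGL and MMT with 0.09, 0.20 and 0.06, the auxin genes GH3.17, IAA18 and WES1 with -0.08, 0.02 and -0.01, EIN3 of the ethylene list with -0.11, or PYE of the iron list with -0.01. Line by line, BCAT4 was called higher in slim1-1 than in P (0.53) and UGT74B1 lower in slim1-2 than in P (-0.34). BCAT4 had -0.10 in slim1-2 and UGT74B1 -0.06 in slim1-1, and these did not pass. GSTU28 and CHI, the latter of the flavonoid list, were called lower in slim1-1 than in P (-0.44 and -0.54). MSRB9, of the oxidative stress list, was called lower in slim1-2 than in P (-0.29). In the other slim1 line GSTU28, CHI and MSRB9 had -0.10, -0.16 and -0.03 and did not pass. For S15 minus S1500, BCAT4 was called lower in every line, by -3.81, -3.17 and -5.18 in slim1-1, slim1-2 and P. UGT74B1 had -0.71, 0.05 and -0.94, and its slim1-2 change did not pass. MGL rose by 1.15 in P, with changes of 0.03 in slim1-1 and -0.33 in slim1-2 that did not pass. CBL was called lower in slim1-1 (-0.41) and P (-0.56), and -0.26 in slim1-2 did not pass. UGT78D2 was called lower in P (-0.66), with -0.03 in slim1-1 and 0.16 in slim1-2 not passing. CHI was called lower in slim1-2 (-0.98), with -0.16 in slim1-1 and -0.13 in P not passing. The lists of sulfate transport, jasmonate, nitrogen, phosphate, endodermis, stele and the root cap with meristem had no gene named and were not analysed here.

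Markers of cell types were checked beside these results. The 2 named root hair expansins, EXPA7 and EXPA18, which loosen the walls of growing hair cells, summed to 432 to 492 on S15 against 456 to 503 on S1500 in slim1-1. Their sums were 649 to 651 against 660.1 to 758 in slim1-2, and 883 to 894 against 479 to 569.7 in P. In P they rose by 0.76 and 0.79, while their changes of -0.07 and -0.03 in slim1-1 and -0.18 and -0.07 in slim1-2 did not pass. Averaged over media they were lower in slim1-1 than in P, at -0.54 and -0.53, while -0.13 and 0.13 for slim1-2 minus P did not pass. For slim1-1 minus slim1-2, EXPA18 was lower, at -0.66, and EXPA7 at -0.41 did not pass. Their part in the members' values was not tested.

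The 3 named photosynthesis genes, RCA, LHCB4.1 and LHCB4.2, which mark green tissue, were above the floor although the tissue is labelled as root. They summed to 742 to 874 on S15 against 874 to 959 on S1500 in slim1-1, to 863 to 940.0 against 1461 to 1484 in slim1-2, and to 1235 to 1253 against 1463 to 1659 in P. For S15 minus S1500, 1 of 3 was called lower in slim1-1 (LHCB4.2, -0.71), 2 in slim1-2 (LHCB4.2, -1.63, and RCA, -0.73) and 1 in P (RCA, -0.42). LHCB4.1 had -0.01, -0.42 and -0.10 in the same order of lines and did not pass. For both slim1 lines minus P, 2 of 3 were lower, RCA at -0.62 and LHCB4.2 at -0.81, and LHCB4.1 at -0.17 did not pass. For slim1-1 minus slim1-2, RCA was lower, at -0.41, and LHCB4.1 and LHCB4.2 had -0.45 and -0.35 and did not pass. Their part in the line-average differences of the members was not tested. In whole roots, fewer cells of a type and less RNA per cell cannot be told apart.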

How the data were processed

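RNA abundance was measured on Affymetrix arrays in roots of 3 lines on 2 media, 2 arrays per group. The authors deposited a linear intensity for each probe set on each array, and the submitters' processing notes name MAS5. No source used here gives its version or scaling target. Groups and replicate numbers come from the sample titles.

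Signals were scaled per array to a median of 100 over 22746 probe sets (64 controls left out of 22810), raised to at least 32 and log2-transformed, the scale on which the members are defined. The 13647 probe sets with a mean above the 40th percentile (5.91) were fitted with limma 3.58.1 in R 4.3.3, with 1 mean per group, eBayes with an intensity trend, and 8.83 prior degrees of freedom on top of 6 residual ones. Two-sided p-values were adjusted over all tested probe sets by Benjamini-Hochberg and called under 0.05. The procedure was tested on simulated data. The members, lists and tests were chosen with earlier results of these data known.

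Of 22810 probe sets, 13513 have 1 gene in the annotation, 503 have several and 8794 are absent from it and stay unnamed. Of those with 1 gene, 13436 matched RefSeq (TAIR10.1). Every member with 1 gene is named. Arrays are given in full for the 10 of them with the largest mean response, which include all 3 with a line-average call, and for the 2 largest without a name. Promoter motifs were planned and not analysed here. Alternatives were other floors, quantile normalization, no scaling, other filters, no trend, a replicate block and leaving out each array.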

Additional observations from a re-analysis of the deposited data

Results flagged for a closer look

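Probe set 255105_at, without a named gene, differed between media in how the slim1 lines compared with P. All 4 slim1 arrays were below both P arrays on S15, by -1.49 on the log2 scale. On S1500 all 4 were above them, by at least 1.14, since both P arrays were raised to the floor of 32. The difference of response was -2.64 or lower, and it was not tested because the responses chose the members.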

How the results depend on the processing

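The rule gave 40 members, 45 with a floor of 16, 27 with a floor of 64, 42 with quantile normalization, 110 without scaling, 5 with a threshold of 1 and 41 without the condition on single arrays. With each array left out in turn it gave 35 to 46, of which 32 to 39 were among the 40. Their median response without scaling was 0.94 in P and 1.28 in slim1-2. Leaving out single arrays gave 0.72 to 0.84 in P, 0.75 to 0.89 in slim1-1 and 0.70 to 0.78 in slim1-2, and -0.11 to 0.04 for the median difference of response.

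Called members for both slim1 lines minus P, slim1-1 minus P, slim1-2 minus P and slim1-1 minus slim1-2 numbered 10, 10, 8 and 5. Without scaling they numbered 2, 1, 1 and 0, and with no filter 1, 1, 2 and 1. The filter at the 60th percentile gave 5 for slim1-2 minus P. Without the filter 4964 probe sets at the floor on all arrays entered the fit, and the prior degrees of freedom were 0.745. Over all tested probe sets the 4 comparisons had 25, 23, 27 and 18 calls without scaling and 152, 117, 167 and 111 with no filter. S15 minus S1500 in P, slim1-1 and slim1-2 had 64, 24 and 37 calls without scaling and 289, 151 and 222 with no filter. Its split in slim1-1 was 67 higher and 210 lower, and 109 and 190 with quantile normalization.

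With each array left out in turn, called members numbered 6 to 11, 7 to 12, 5 to 9 and 2 to 5 in the order above. For both slim1 lines they numbered 6 without either P-S1500 array or without P-S15 replicate 2, for slim1-2 minus P 5 without P-S15 replicate 2 or slim1-2-S15 replicate 2, and for slim1-1 minus slim1-2 3 without slim1-1-S1500 replicate 1 or slim1-2-S1500 replicate 1 and 2 without slim1-2-S15 replicate 1. All calls ranged over 179 to 491, 176 to 332, 196 to 492 and 159 to 219. The 3 responses ranged over 238 to 496 in P, 154 to 290 in slim1-1 and 172 to 397 in slim1-2.

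Replicate numbers are shared between groups, and the labels do not say whether they pair the arrays. Deviations of same-numbered arrays correlated at -0.12 to 0.26 over 15 pairs of groups, with 5 over 0.1. The main fit did not pair the arrays, and weak pairing was not tested further. With the replicate number as a block, called members numbered 9, 11, 8 and 5, and all calls 410, 315, 414 and 243. The cause of these changes was not tested.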
